A study of Mus musculus with 2 samples.

Results

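Expression of the plasminogen activators, their cell-surface binding proteins and their serpins was examined in unsorted bone marrow cells of mice, with 1 culture from Cpdm animals and 1 from wildtype animals. Cpdm is the chronic proliferative dermatitis mutant, in which a spontaneous frameshift abolishes SHARPIN, which is part of the complex that builds linear ubiquitin chains. Both cultures had 10 days with ascorbic acid at 50 µg/ml and β-glycerophosphate at 10 mM, the supplements used to bring marrow stromal cells to form mineralising osteoblasts, and neither had any other treatment. RNA of each culture went onto 1 Affymetrix array; strain, age and the number of mice per culture were not given in the sources used here. Expression is described for 8 genes, namely Plau, Plat, Plaur, Anxa2, S100a10, Serpinb2, Serpine2 and Serpinf1. They were chosen by the Cpdm and wildtype signals of Serpinb2, which was much higher in Cpdm, together with the roles of the other genes, so the values below describe these 2 arrays with no test. Of the 8 genes, 7 had probe sets assigned to that gene alone, 14 probe sets out of 34945 such probe sets for 18193 genes. Serpine2 was not analysed here.

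Plasminogen is an inactive protease precursor of plasma. The activators urokinase (Plau) and tissue-type plasminogen activator (Plat) cleave it to plasmin, which dissolves fibrin, degrades matrix proteins and activates other proteases and growth factors. Urokinase is held at the cell surface by its receptor (Plaur), and a complex of annexin A2 and S100A10 binds plasminogen and its activators there. Most serpins are protease inhibitors that trap their target in a covalent complex. Serpinb2 encodes plasminogen activator inhibitor 2, an inhibitor of urokinase that is found largely inside cells and is strongly inducible in macrophages and fibroblasts. Serpinf1 encodes pigment epithelium-derived factor, a secreted serpin that inhibits no protease, is made by osteoblasts and is needed for normal bone mineral in humans.

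Promoter letters are shown for Serpinb2 and Serpinf1, the extremes of the 7 genes with a signal, and for Anxa2, which differed little. They are the 250 bases before the RefSeq start site (build GRCm38.p6), so that they can be set beside the signals. For Serpinb2 the first of 2 listed start sites is used. Capitals mark matches on either strand to an AP-1 motif (TGANTCA), a cyclic AMP response element (TGACGTCA), a TATA box (TATAAA), a C/EBP motif (TTNNGNAA), an Sp1 motif (GGGCGG), a GAS element bound by STAT factors (TTCNNNGAA), a RUNX motif (AACCACA) or the 10-letter NF-κB consensus; neighbouring Sp1 matches can overlap.
Serpinb2, chr1:107511173-107511422, + strand: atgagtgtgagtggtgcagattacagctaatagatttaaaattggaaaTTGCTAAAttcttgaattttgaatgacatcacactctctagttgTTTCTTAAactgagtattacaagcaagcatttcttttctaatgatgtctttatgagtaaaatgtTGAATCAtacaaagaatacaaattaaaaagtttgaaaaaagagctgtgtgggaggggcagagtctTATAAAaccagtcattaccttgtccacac
Anxa2, chr9:69453433-69453682, + strand: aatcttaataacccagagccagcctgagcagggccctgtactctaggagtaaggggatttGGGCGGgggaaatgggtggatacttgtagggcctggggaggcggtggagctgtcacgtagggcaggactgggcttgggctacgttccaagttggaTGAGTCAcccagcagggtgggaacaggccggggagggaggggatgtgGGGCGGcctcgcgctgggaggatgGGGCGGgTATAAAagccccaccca
Serpinf1, chr11:75422624-75422873, - strand: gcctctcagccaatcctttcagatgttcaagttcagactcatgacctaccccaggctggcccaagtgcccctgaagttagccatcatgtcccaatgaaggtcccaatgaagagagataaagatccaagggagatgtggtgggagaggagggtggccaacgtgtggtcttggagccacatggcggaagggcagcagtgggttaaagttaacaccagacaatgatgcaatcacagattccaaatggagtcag
The Serpinb2 window held 1 TATA match beginning 29 bases before the start site, 1 AP-1 match beginning 94 bases before it and 2 C/EBP matches. The window of the other Serpinb2 start site, which overlaps this one and is not printed, held the same TATA and AP-1 letters, 2 C/EBP matches and 1 GAS match. The Anxa2 window held 1 TATA match, 1 AP-1 match and 3 Sp1 matches. No letters of these 8 motifs were found in the Serpinf1 window. Of 32851 promoter windows of this length in the RefSeq table, 6.75% held the AP-1 motif, 12.4% the TATA box, 36.8% the C/EBP motif, 32.7% the Sp1 motif, 1.55% the cyclic AMP element, 7.02% the GAS element, 4.4% the RUNX motif and 7.25% the NF-κB consensus. The Plaur window, which is not printed, held 5 matches, with 1 AP-1 match and others to the C/EBP and Sp1 motifs. The Serpine2 window held 6 matches, all to the Sp1 motif. Plau, Plat and S100a10 had no promoter window in the RefSeq table and were not searched. Among the 5 genes with a window, the AP-1 letters thus stood before Serpinb2, Plaur and Anxa2. Any part of these motifs in the signals was not tested.

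Signals are MAS5 intensities in arbitrary units on a linear scale. A floor was set at the 40th percentile of each array, 18.5 in Cpdm and 18.7 in wildtype, and a probe set was taken as measured where it reached the floor in at least 1 array. Differences are given as log2 of the Cpdm over the wildtype signal, and at least 2-fold is the rule of size. Error between cultures could not be estimated with 1 array each. Within the pair of arrays, 18 spike-in probe sets had log2 ratios between -0.22 and 0.20, and the disagreement between probe sets of one gene, over 5250 genes, had a robust SD of 0.46 log2 units, which corresponds to 0.32 for a single probe set. In 6.95% of those genes both probe sets lay at least 1 log2 unit apart.

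Some facts of the arrays run alongside genotype. The Sharpin transcript read 162 in Cpdm and 197 in wildtype, which does not check the labels because a frameshift need not remove the RNA. The 18S ribosomal control probe sets were lower in Cpdm, with log2 ratios from -3.75 to -2.37. Xist read 1113 against 247 and the Y-linked gene Uty 42.9 against 162; the labels give no sex for the mice. In bulk RNA, fewer cells of a type and less RNA per cell cannot be told apart. Among 10 macrophage markers, Cd68 read 3089 against 2545, while Marco lay below the floor in wildtype at 7.09 and read 162 in Cpdm. All 10 were measured, 3 passed 2-fold upwards in Cpdm and none downwards, and their summed signal was 16466 against 12504. Of 6 measured osteoblast markers, 5 were lower by at least 2-fold, with a summed signal of 4828 against 13288. Of 4 measured smooth muscle or myofibroblast markers, 3 were at least 2-fold higher, with a summed signal of 8003 against 3400. Myh11, also on that list, lay below the floor in both arrays.

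The 7 genes with a signal were counted by the strongest probe set of each. Of them, 2 passed 2-fold with the higher signal in Cpdm (Serpinb2 and Plat), 1 with the lower signal there (Serpinf1), and 4 stayed under 2-fold. Of all 14055 measured genes, 5.84% were at least 2-fold higher and 5.98% at least 2-fold lower. Nothing is read from these shares, because the same contrast chose the genes. The median log2 ratio of the 7 genes was 0.21, beside 0.03 for all measured genes. The genes nearest to the 2-fold line were Serpinf1 at 2.57-fold inside it and Plau at 1.69-fold outside it, the latter a lower bound. All 7 genes were measured in at least 1 array. Of their 14 probe sets, 11 lay above the floor in both arrays, 2 in wildtype only and 1 in neither.

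**Figure D1:**
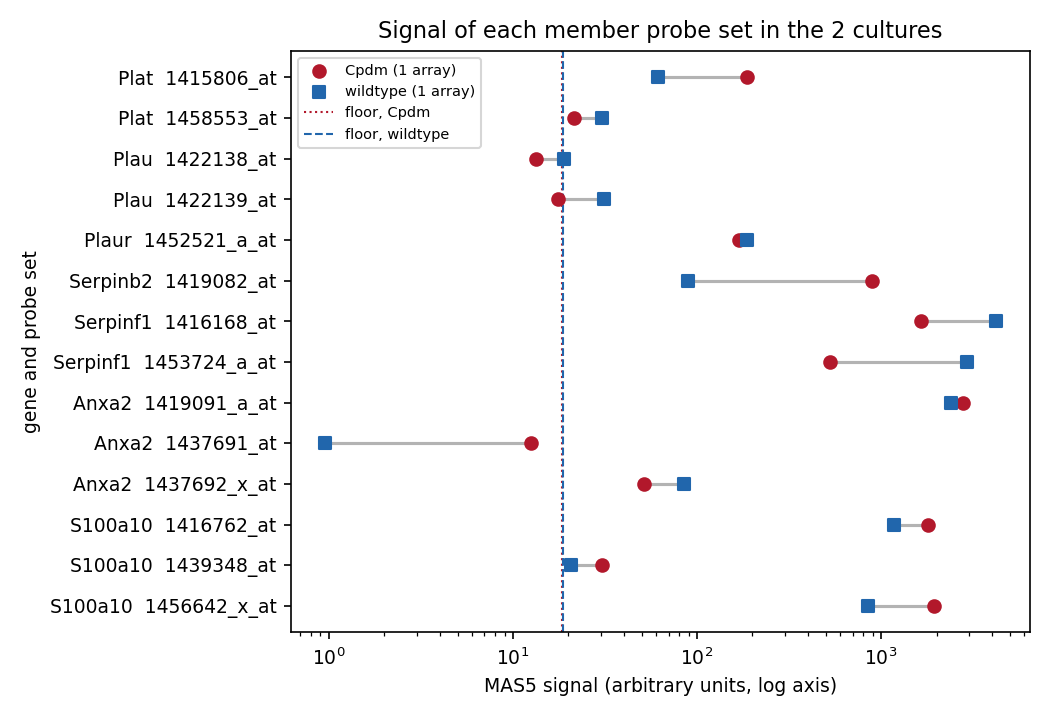
MAS5 signal (log axis, arbitrary units) of the 14 probe sets in the Cpdm array (circles) and the wildtype array (squares), 1 array each, with the floor of each array as a vertical line. The widest gap above the floor is that of Serpinb2, 887 against 89.6, and both Serpinf1 probe sets lie lower in Cpdm.

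The activators differed from each other by their strongest probe sets. Plat, which encodes the tissue-type activator, read 187.5 in the Cpdm culture and 61.1 in the wildtype culture by probe set 1415806_at, which is 3.07-fold higher in Cpdm. Its log2 ratio of 1.62 was the 205th highest of 14055. A second Plat probe set, 1458553_at, built on an expressed sequence tag, read 21.4 against 30.6, the other way and close to the floor. The 2 Plat probe sets disagreed by 2.14 log2 units, well beyond the robust SD of 0.46 for such differences. Both the direction and the size of the Plat difference therefore rest on 1 probe set. The mean of both gave a log2 ratio of 0.55, under 2-fold. Plat is a classical product of endothelial cells. Of 6 endothelial markers only Kdr was measured, at 75.7 against 97.9, and Pecam1, Cdh5, Emcn, Tek and Vwf lay below the floor in both arrays; which cells gave the Plat signal was not tested.

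Plau, the gene of urokinase, was near the floor in both cultures. Probe set 1422139_at read 17.7 in Cpdm, under the floor, and 31.2 in wildtype, at least 1.69-fold lower. Probe set 1422138_at read 13.4 and 18.9, at least 1.02-fold lower. Both values were lower in Cpdm, but with the floor set at the 60th percentile Plau was no longer measured in either array.

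Plaur, the urokinase receptor, had 1 probe set, which read 169 in Cpdm and 186 in wildtype. Its log2 ratio of -0.14 lay inside the range of the spike-ins. The receptor signal was thus well above the floor in both cultures and close to equal. Both probe sets of its ligand read near the floor in each culture, under it in Cpdm and above it in wildtype.

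The annexin A2 and S100A10 subunits were abundant in both cultures. Anxa2 read 2785 in Cpdm and 2408 in wildtype by probe set 1419091_a_at, 1.16-fold higher and within the robust SD of a single probe set. Probe set 1437692_x_at, of a kind that can bind related transcripts, read 51.7 and 85.4, 1.65-fold lower, and the third was below the floor in both arrays, at 12.5 and 0.949. The mean of both measured Anxa2 probe sets gave a log2 ratio of -0.26, so the direction for Anxa2 turned with the choice of probe set.

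S100a10 was higher in Cpdm by each of its 3 probe sets. They read 1799 against 1175 (1.53-fold), 1949 against 848 (2.30-fold, by the probe set 1456642_x_at that can bind related transcripts) and 30.5 against 20.7 (1.47-fold, near the floor). Its log2 ratio of 0.61 was beyond the robust SD of 0.32 for a single probe set and did not reach 2-fold. That SD holds no variation between cultures, so it does not measure the error of a genotype difference. The light subunit of the complex was therefore higher by every probe set, while the probe sets of the annexin subunit went both ways.

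**Figure D2:**
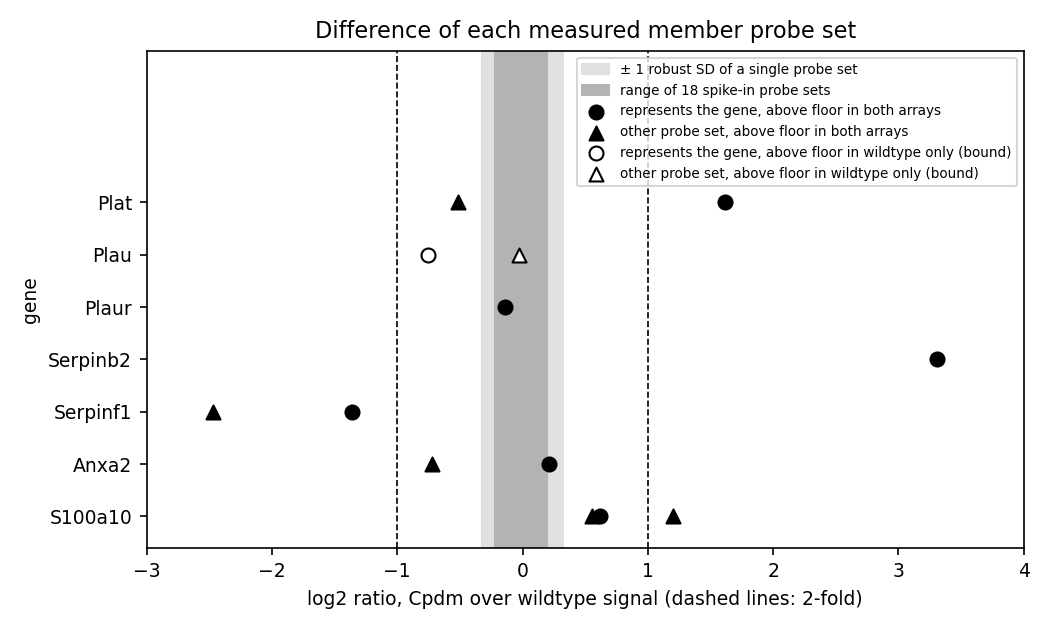
Log2 ratio of Cpdm over wildtype signal for the 13 measured probe sets of the 7 genes, with the spike-in range and ± 1 robust SD of a single probe set shaded and 2-fold dashed; open symbols are bounds. Serpinb2 stands at 3.31, the Serpinf1 probe sets at -1.36 and -2.47, and the Plat probe sets lie on opposite sides of 0.

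Serpinb2, the urokinase inhibitor, had the largest difference of the 7 genes. Its single probe set, 1419082_at, read 887 in the Cpdm culture and 89.6 in the wildtype culture. The fold was 9.89, a log2 ratio of 3.31, the 10th highest of 14055 measured genes. Both readings lay well above the floor, so the fold is no bound, and it ranged from 8.55 to 10.1 over the other floors, scalings and pseudocount tried. With 1 probe set there is no second reading of Serpinb2 on the array. The 5 genes whose pair of log2 signals lay closest to that of Serpinb2 were Slco2b1, Ccl12, Ltc4s, Ednrb and Ltbp2, at Euclidean distances from 0.48 to 0.76 log2 units over the 2 arrays. They were picked by these same signals, so their higher reading in Cpdm follows from the choice and nothing is read from it. Macrophage and smooth muscle or myofibroblast markers had median log2 ratios of 0.61 over 10 genes and 1.90 over 4 genes. Of the macrophage markers, 3 were at least 2-fold higher in Cpdm, up to at least 8.64-fold (Marco), and 7 stayed under 2-fold. Of all 10, 9 had log2 ratios above 0 and 1, Lyz2, was below, at 2657 against 3507. Csf1r, counted as under 2-fold, was 2.38-fold and 2.18-fold higher by its other probe sets. Of 8 stromal fibroblast markers, 2 were at least 2-fold higher and 2 lower, with a median log2 ratio of 0.44. The part of these cell types in the Serpinb2 difference was not tested.

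Serpinf1, the serpin made by osteoblasts, was lower in the Cpdm culture by both of its probe sets. Probe set 1416168_at read 1639 in Cpdm and 4215 in wildtype, 2.57-fold lower, and ranked 450th from the lowest of 14055 genes. Probe set 1453724_a_at read 529.7 and 2929, 5.53-fold lower. The probe sets agreed in direction and differed by 1.10 log2 units in size. The wildtype reading of the first stood at 81.7% of the highest signal on either array, where array signals can be compressed. Serpinf1 was still a strong signal in Cpdm. The osteoblast markers in the same arrays had a median log2 ratio of -2.94 over 6 genes. Alpl (alkaline phosphatase) read 130 against 1518 and Sp7, an osteoblast transcription factor, 87.1 against 650. Ibsp stayed under 2-fold by its strongest probe set, at 3159 against 4130, and was 6.20-fold lower by another. The listed markers Bglap and Runx2 had no probe set assigned to that gene alone. The part of the osteoblast markers in the Serpinf1 difference was not tested. The 2 serpins with a signal thus stood at opposite ends of the measured genes of the family. Serpinb2, chosen for its higher signal in Cpdm, was the highest and Serpinf1 the lowest.

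**Figure D3:**
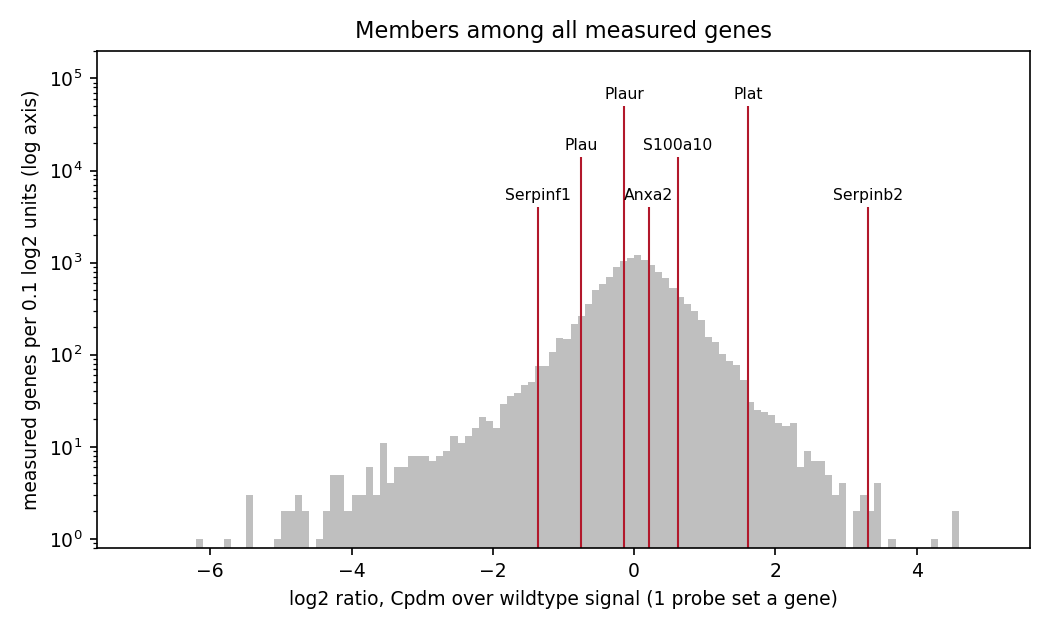
Distribution of log2 ratios of Cpdm over wildtype signal for 14055 measured genes, 1 probe set a gene (bars, log axis), with the 7 plasminogen system genes as vertical lines of arbitrary height. Serpinb2 lies in the far upper tail, Plat and Serpinf1 lie beyond 2-fold on opposite sides, and the other 4 lie within 2-fold of equal.

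Other genes of the plasmin system and of the same families were compared through 7 lists of 105 genes in all, of which 69 were measured. Over these, 5 passed 2-fold upwards in Cpdm, 3 downwards and 61 neither way; their median log2 ratio was 0.19, beside 0.03 for all measured genes, and their counts stand beside the 5.84% and 5.98% of all measured genes. The shares of 7.25% and 4.35% are near those of all genes. Of the 61, 12 reached the floor in 1 array only, so their ratios are bounds, and 36 listed genes had no measured signal.

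Plasminogen itself (Plg) lay below the floor in both cultures, as did the plasmin inhibitor gene Serpinf2, Serpina5, F12 and Klkb1. Among 6 measured genes of the list of plasminogen and inhibitors, 1 passed 2-fold upwards and none downwards, and the median log2 ratio was 0.08. The higher one was Thbd, thrombomodulin, a cofactor of thrombin, at 161 against 79.3, or 2.03-fold. Serping1, the C1 inhibitor, which also inhibits plasmin, was near equal at 1160.5 against 1153.

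Among 16 measured receptors, binding partners and clearance genes, 2 passed 2-fold downwards in Cpdm and none upwards, and the median log2 ratio was 0.21. Vldlr, an endocytic receptor that takes up complexes of urokinase with its inhibitors, read 43.2 in Cpdm and 772 in wildtype, 17.9-fold lower. All 6 of its probe sets were at least 2-fold lower, with log2 ratios from -4.16 to -1.48, of which 4 were at the floor in Cpdm. Mrc2, the collagen receptor Endo180 that associates with the urokinase receptor, read 190 against 424, 2.23-fold lower, and its second probe set read 9.74 against 67.5, at least 3.65-fold lower. Lrp1, the related endocytic receptor for activator and inhibitor complexes, read 714 against 612, with 60.3 against 28.3 by another probe set. Sorl1, a sorting receptor of the same family, read 60.8 against 44.3 by one probe set and 61.1 against 13.2, at least 3.26-fold higher, by another. Of these relatives of the low-density lipoprotein receptor, Vldlr was thus low in Cpdm and Lrp1 near equal by its stronger probe set.

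Plgrkt, the plasminogen receptor with a C-terminal lysine, read 486 against 434. Vtn, vitronectin, a ligand of the urokinase receptor, was at the floor in wildtype and 21.3 in Cpdm. The integrin partners of the urokinase receptor ranged in log2 ratio from -0.05 for Itgb1 to 0.97 for Itgb5. Itgb2, the leukocyte integrin β subunit, read 1199 against 657 and its partner Itgam 77.5 against 71.0. Itgb5 read 1412 against 722 and was at least 2-fold higher by 2 of its 4 probe sets. Itgb3, Itga5, Itga3 and Itgav had log2 ratios of 0.95, 0.86, 0.14 and 0.05. Fpr2, a chemotactic receptor that responds to cleaved urokinase receptor, read 89.1 against 49.0. Ahnak, a large scaffold bound by the annexin A2 and S100A10 complex, had a log2 ratio of 0.48 by its strongest probe set, and its other 3 probe sets were lower in Cpdm.

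**Figure D4:**
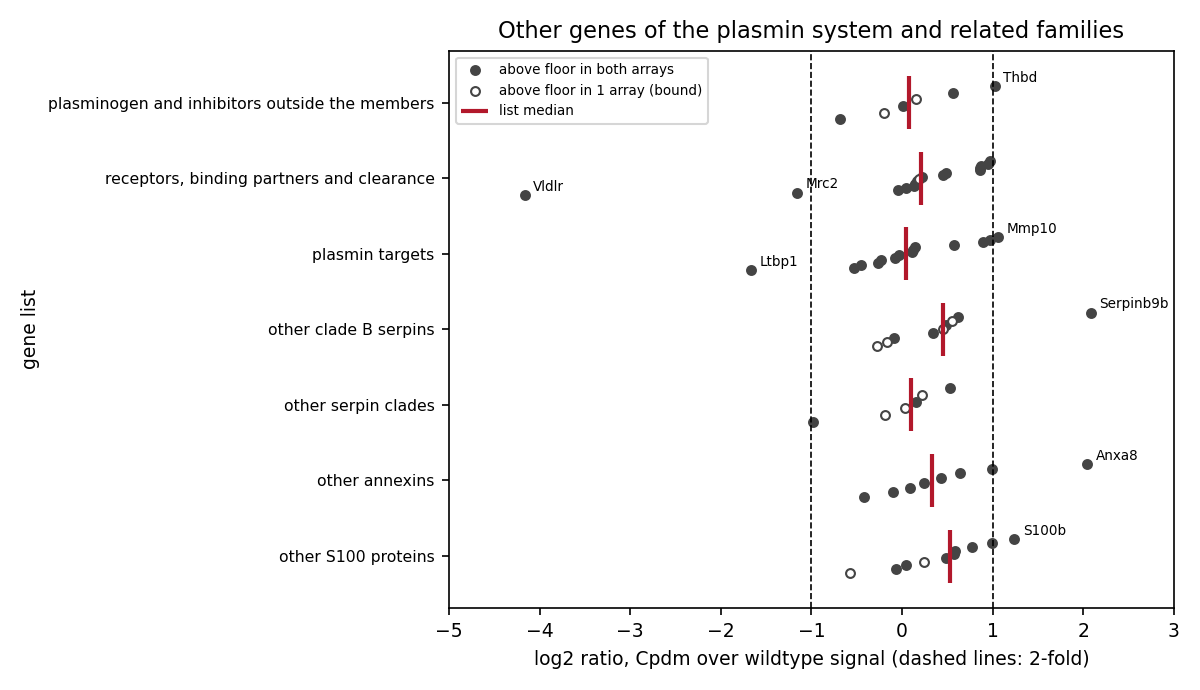
Log2 ratio of Cpdm over wildtype signal for the 69 measured genes of 7 related lists (filled points above the floor in both arrays, open points bounds), with list medians as vertical bars and 2-fold dashed. Vldlr lies far left at -4.16, and the named points are those beyond 2-fold.

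Of 14 measured plasmin targets, 1 passed 2-fold in each direction, and the median log2 ratio was 0.04. Ltbp1, the latent TGF-β binding protein that plasmin releases from matrix, read 136 against 432, 3.18-fold lower. Mmp10, stromelysin 2, a metalloproteinase that plasmin activates, read 40.9 against 19.6, 2.09-fold higher, with the wildtype value near the floor. The abundant collagenase gene Mmp13 was near equal, at 3052 against 3211. Fn1, fibronectin, read 2860 against 2628 by its stronger probe set and 191 against 94.0, 2.03-fold higher, by another. Thbs1, thrombospondin 1, read 2157 against 2588 by its stronger probe set and 675 against 1453, 2.15-fold lower, by another. The fibrinogen genes Fga, Fgb and Fgg lay below the floor in both arrays.

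Of 9 other measured serpins of clade B, the clade of Serpinb2, 1 passed 2-fold upwards in Cpdm and none downwards, and the median log2 ratio was 0.45. That one was Serpinb9b, a relative of the granzyme B inhibitor, at 86.1 against 20.3, 4.24-fold higher with the wildtype value near the floor. The abundant Serpinb6a read 2600 against 1854. Serpinb9, which encodes the granzyme B inhibitor, read 244 against 159. Serpinb8, an inhibitor of furin, read 90.5 against 71.6. The log2 ratios of the 9 genes lay between -0.28 and 2.08. Serpinb2 was chosen for its higher signal in Cpdm, so nothing is read from its place above them. In the other serpin clades none of 6 measured genes passed 2-fold. Serpinh1, the collagen chaperone HSP47, came closest and read 2078 against 4112, with 2071 against 3598 by its second probe set. Both of its probe sets thus read lower in the Cpdm culture without reaching 2-fold.

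The relatives of the annexin and S100 subunits were compared in the same way, with 52.4% of all measured genes above 0. Of 8 other measured annexins, 6 had log2 ratios above 0 and 1, Anxa8, was at least 2-fold higher, by both of its probe sets at 334 against 80.9 and 217 against 54.5. The median was 0.33. Of 10 other measured S100 genes, 8 were above 0 and 1, S100b, was at least 2-fold higher, at 126 against 53.2, with a log2 ratio of 0.54 by another probe set. The median was 0.53, close to the 0.61 of S100a10. S100a6 and S100a4 read 2936 against 1470 and 2089 against 1223. The log2 ratio of S100a10 thus lay among those of the other S100 genes, which ranged from -0.57 to 1.24. Anxa2, at 0.21 by its strongest probe set, likewise lay among the other annexins, which ranged from -0.42 to 2.05.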

How the data were processed

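RNA of 2 cultures was measured on 1 array each. The authors deposited linear signal intensity values for 45101 probe sets. The submitters' processing notes name GCOS 1.4 with MAS5; scaling target, background settings and detection calls were not given in the sources used here. After trimming 2% from each end, the mean was 100.001 in both columns. Of 45037 non-control probe sets, 34945 had 1 gene in the platform annotation, 932 several and 9160 none. Entrez identifiers matched 34741 of the 34945, and no matched symbol changed.

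Signals were used as deposited and raised to the floor where lower. Each gene was represented by its strongest probe set (mean log2 signal). With 1 array per genotype no test or p-value is possible, and the number of arrays limits the precision. The genes and lists were chosen with earlier results of these data known. Named were all probe sets of the 8 genes and, per list, genes past 2-fold (up to 4 each way) and direct binding partners; other list and marker genes are examples picked after their values were seen. Alternatives changed the floor, scaling, probe set choice and pseudocount. The calculation was tested on simulated data. Python 3.11.15, numpy 2.4.6 and pandas 2.3.3 were used. Promoter sequences are from RefSeq (GRCm38.p6), which held 5 of the 8 genes.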

Additional observations from a re-analysis of the deposited data

How the results depend on the processing

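Over 10 alternatives, 226 values were recomputed for 23 results. Of the alternatives, 9 were planned and 1, only probe sets reaching the floor in each array, was chosen after seeing the data. Of the values, 199 stayed within 1 robust SD (log2 ratios) or within 1.5 times (counts) and 27 moved. None of the 2-fold differences of Serpinb2, Plat or Serpinf1 changed direction. Some values could not move. Serpinb2 has 1 probe set above every floor tried, so only scaling and the pseudocount could change its value. No alternative took the second Plat probe set alone, which read the other way. With the mean over measured probe sets, the log2 ratio was -0.39 for Plau, 0.55 for Plat, -1.92 for Serpinf1 and -0.26 for Anxa2, which left 1 of the 7 genes at least 2-fold higher; in the related lists it gave 2 receptors and 0 S100 genes at least 2-fold higher. Without a floor, 3 genes of the plasminogen list, 3 plasmin targets, 3 clade B serpins, 2 other serpins and 2 S100 genes were at least 2-fold higher, and 1 gene of the plasminogen list, 2 other serpins and 1 S100 gene were at least 2-fold lower. With a pseudocount of 16, these counts were 0 for the plasminogen list, 0 for plasmin targets and 2 for clade B serpins. With the floor at the 30th percentile, 2 clade B serpins were higher and 1 S100 gene lower; at the 60th, 0 plasmin targets and 0 clade B serpins were higher. Dividing by the median and quantile normalization each gave 2 annexins and 2 S100 genes higher. Without probe sets ending in _s_at, _x_at or _a_at, 1 receptor was higher, and Plaur and Anxa2 had no value. Plau had no value at the 60th percentile floor or where both arrays had to reach the floor. No paired analysis was possible because there is 1 array per genotype; leaving out a replicate was not possible for the same reason. Over all genes, 821 were at least 2-fold higher and 840 lower, against 1741 and 1885 without a floor. Signals near the floor, as for Plau and the second Plat probe set, limit what can be read from them.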
